A study of Saccharomyces cerevisiae with 4 samples.

Results

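The genes examined here encode the mitochondrial protein import machinery of the budding yeast Saccharomyces cerevisiae: 35 nuclear genes of the 5449 genes tested. They were chosen by the known place of their proteins in the import complexes. All 35 were found through the platform annotation, each by 1 probe set, and none of these probe sets carries the array's mark for binding several transcripts. Transcript levels came from 4 Affymetrix arrays. The laboratory strain BY4741, a MATa haploid with deletions in HIS3, LEU2, MET15 and URA3, was grown in rich YPD medium to an optical density (OD600) of about 0.4 in 10 mL. Honokiol, a biphenol found in the bark of magnolia trees, was given to 2 cultures at 12 µg/mL for 2 h, and the control group of 2 cultures received a matching volume of ethanol, the solvent. The labels give an age of 8 h for every sample and call the replicates biological.

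Most mitochondrial proteins are encoded in the nucleus, made in the cytosol and imported as precursors. The TOM complex is their common gate through the outer membrane. Behind it the routes divide: the TIM23 complex and the PAM motor take precursors with a cleavable presequence into the inner membrane and matrix, small TIM chaperones hand metabolite carriers to the TIM22 complex, the SAM complex inserts beta-barrel proteins into the outer membrane, and the MIA disulfide relay folds cysteine-rich proteins in the intermembrane space. The matrix processing peptidase removes presequences, and the insertase OXA1 places proteins into the inner membrane from the matrix side. In yeast most of the central subunits are essential for growth.

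The 3 genes deleted in whole in this strain, LEU2, MET15 and URA3, read between 2.73 and 4.56 in log2 intensity, near or below the background level of 4.39. That level was set from probe sets naming genes absent from the S. cerevisiae gene table. HIS3, of which BY4741 lacks only part, read between 10.69 and 11.05. The a-specific genes MFA1, MFA2 and STE2 read between 12.47 and 13.52, whereas the alpha-specific pheromone gene MF(ALPHA)1 stayed between 3.27 and 3.83; STE3 and MF(ALPHA)2, also alpha-specific, read between 5.45 and 7.98. Over all tested genes, replicate arrays differed with an SD of 0.12 (honokiol) and 0.21 (ethanol). RNA quality, by the mean over control transcripts, was lower on both ethanol arrays than on the honokiol arrays, and lowest on ethanol 2. The mean log2 intensity of 5′ minus 3′ probe sets over 7 control transcripts was -1.18 for honokiol 1, -1.22 for honokiol 2, -1.31 for ethanol 1 and -1.67 for ethanol 2, and 6 of the 7 transcripts were lower on both ethanol arrays.

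Between the honokiol and ethanol arrays the import genes differed in both directions and by little. With limma, at a Benjamini-Hochberg adjusted p under 0.05 over all 5449 genes, 8 of the 35 rose, 6 fell and 21 did not pass. Across the genome 23.9% of genes rose, 25.0% fell and 48.9% passed in either direction, so the import genes' shares of 22.9%, 17.1% and 40.0% lay near or below the background. The largest rise was 1.41-fold (TOM7), and the largest fall left SAM50 1.45-fold higher with ethanol than with honokiol. No import gene reached a 2-fold change, which 4.73% of tested genes did among those that passed. The median log2 fold change was 0.15 for the import genes and 0.005 for all tested genes, and the median absolute change was 0.19 against 0.25. An array gives a transcript's share of the RNA, so fewer cells with the transcript and less of it per cell cannot be told apart.

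Both honokiol arrays lay above both ethanol arrays for 19 import genes and below both for 12, and the groups overlapped for 4 (TOM40, TIM9, TIM18 and PAM17). Over all genes the groups were apart for 80.2%, with 40.0% above and 40.2% below. Median absolute differences between replicate arrays of the import genes were 0.06 for honokiol and 0.09 for ethanol. For the 21 genes that did not pass, adjusted p ran from 0.0541 to 0.759, and the 95% intervals of their log2 fold changes lay within -0.34 and 0.53. Without honokiol 1 only SAM50 of the 35 passed (adjusted p = 0.0462), and without honokiol 2 only TOM20 (adjusted p = 0.0457); in the same fits the calls over all genes went from 2663 to 708 and 705. Of the 14 called import genes, 1 changed in size by over 1.5 times without honokiol 1 (TOM20) and 0 did without honokiol 2, while their median standard error went from 0.073 to 0.109 in both fits. Without ethanol 1 the numbers were 13 higher and 6 lower. All 14 kept their direction without each array in turn. That outcome was fixed in advance, since the groups of these 14 genes did not overlap.

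**Figure D1:**
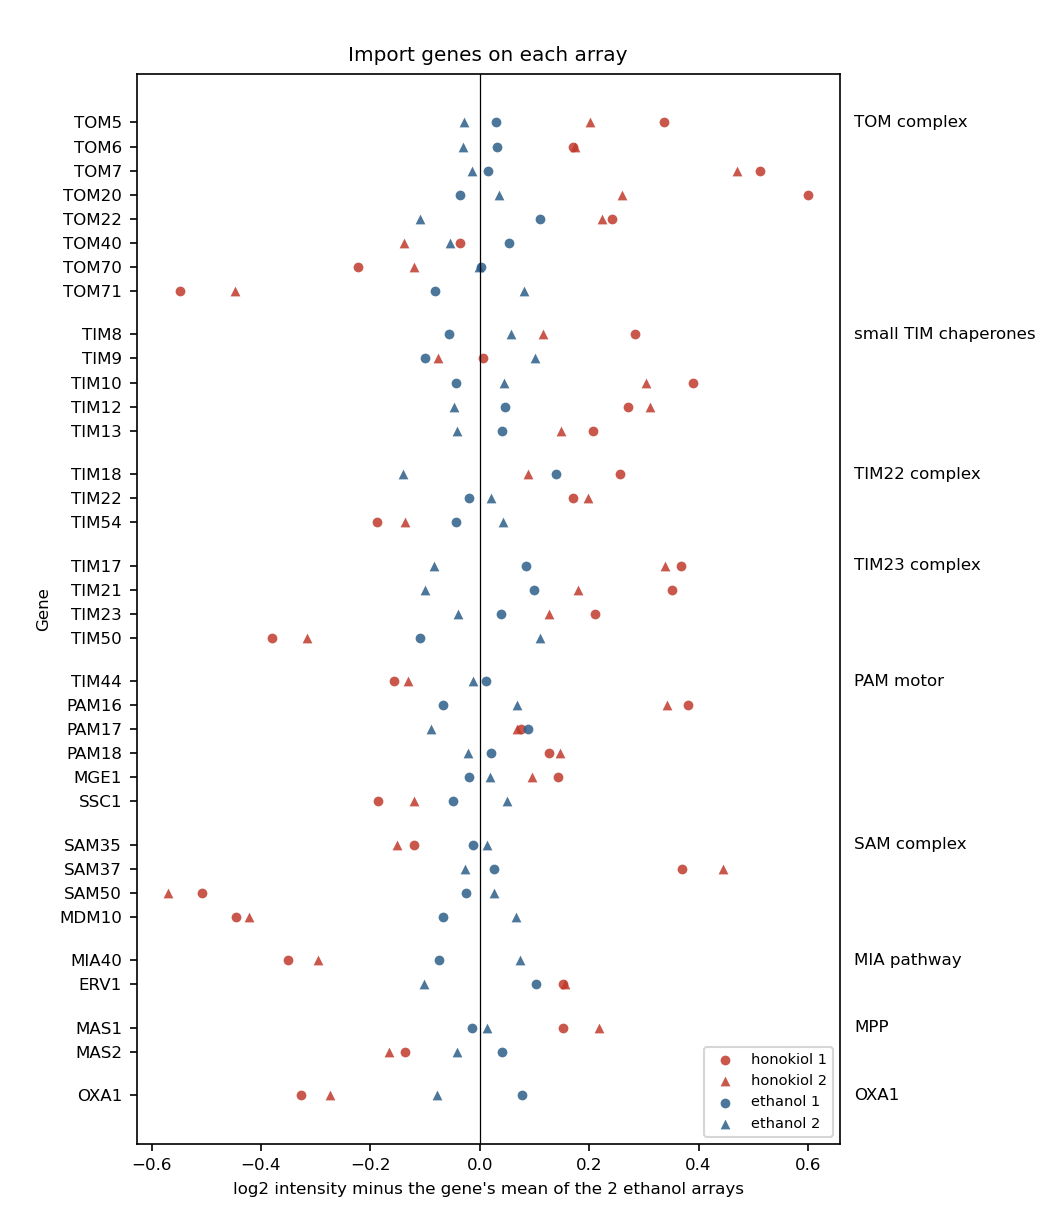
Each row is 1 of the 35 import genes and each point 1 array, as log2 intensity minus the mean of the gene's 2 ethanol arrays; red stands for honokiol, blue for ethanol, circles for replicate 1 and triangles for replicate 2. The red points lie right of both blue points for 19 genes, left of both for 12, and among them for TOM40, TIM9, TIM18 and PAM17.

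Within the TOM complex, 3 of 8 genes rose and 1 fell (median log2 fold change 0.20). TOM7, a small subunit that shapes the assembly of the complex, read 11.25 and 11.21 in log2 intensity with honokiol and 10.75 and 10.72 with ethanol. Its groups were well apart and the change was log2 0.49 ± 0.06 (SE, n = 2 per group; adjusted p = 0.00441). TOM20, a receptor for presequences, read 11.51 and 11.17 with honokiol against 10.87 and 10.95 with ethanol. The honokiol arrays of TOM20 differed by 0.34, the widest replicate gap of any import gene, and its rise of log2 0.43 ± 0.13 passed narrowly (adjusted p = 0.0436). Without honokiol 1 the log2 fold change of TOM20 was 0.26 (adjusted p = 0.159), and without honokiol 2 it was 0.60 (adjusted p = 0.0457). TOM5, a small subunit that passes precursors to the channel, read 11.60 and 11.46 against 11.29 and 11.23, a rise of log2 0.27 ± 0.07 (adjusted p = 0.0361).

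The fall in the TOM complex was that of TOM71, a paralog of the receptor TOM70, which accepts carrier precursors and their cytosolic chaperones. TOM71 read 10.39 and 10.49 in log2 intensity with honokiol and 10.85 and 11.02 with ethanol, and fell by 0.50 ± 0.08 in log2 terms (adjusted p = 0.00984). TOM70 read 11.25 and 11.35 against 11.48 and 11.47, a log2 fold change of -0.17 ± 0.07 that did not pass (adjusted p = 0.0843). For both receptors the honokiol arrays lay below both ethanol arrays. The difference TOM71 minus TOM70 on the same array was -0.87 on each honokiol array and -0.62 and -0.46 on the ethanol arrays; since the 2 probe sets differ, only its shift between arrays can be read, and that shift was not tested.

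The channel protein TOM40 overlapped between the groups, with 12.31 and 12.21 under honokiol and 12.40 and 12.29 under ethanol (log2 fold change -0.09, 95% interval -0.28 to 0.11; adjusted p = 0.368). TOM22, the central receptor that holds the complex together, read 11.45 and 11.44 against 11.32 and 11.10 (log2 0.23, adjusted p = 0.0921). TOM6, the remaining small subunit, read 12.36 on both honokiol arrays and 12.22 and 12.15 on the ethanol arrays (log2 0.17, adjusted p = 0.0662). Their groups were apart, yet neither passed. TOM7 and TOM71 also passed with the 5′ to 3′ ratio as a covariate (adjusted p = 0.0162 and 0.0349), while TOM5 and TOM20, at log2 fold changes of 0.21 and 0.45 there, did not (adjusted p = 0.16 and 0.131). Without ethanol 2 they had log2 fold changes of 0.24 and 0.47 and did not pass either (adjusted p = 0.0697 and 0.0525), and TOM20 also did not pass without ethanol 1 (adjusted p = 0.0705).

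Small TIM chaperones escort hydrophobic precursors across the intermembrane space. Of the 5 genes, TIM10 and TIM12 rose and none fell (median log2 fold change 0.20). TIM10 read 12.26 and 12.17 in log2 intensity with honokiol and 11.82 and 11.91 with ethanol (log2 0.35 ± 0.07, adjusted p = 0.0151). TIM12, which docks the chaperones on the TIM22 complex, read 9.31 and 9.35 against 9.09 and 9.00 (log2 0.29 ± 0.07, adjusted p = 0.0209). TIM9, with which TIM10 forms a hexamer, did not pass: it read 10.20 and 10.12 with honokiol and 10.09 and 10.29 with ethanol (log2 -0.04, 95% interval -0.27 to 0.20; adjusted p = 0.759). The differences between TIM9 and its partners were not tested. TIM8 and TIM13, which form the other hexamer, had log2 fold changes of 0.20 and 0.18 (adjusted p = 0.116 and 0.0754). In both, the honokiol arrays lay above both ethanol arrays. With the 5′ to 3′ ratio as a covariate TIM10 passed (adjusted p = 0.0305) and TIM12 did not (adjusted p = 0.0911).

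None of the 3 TIM22 complex genes passed, where 1 had an unadjusted p under 0.05. TIM22, the pore of the complex, came nearest with 9.32 and 9.35 in log2 intensity under honokiol and 9.13 and 9.17 under ethanol (log2 0.18 ± 0.06, adjusted p = 0.0541); it passed after quantile normalization over the tested genes (adjusted p = 0.0452). TIM18, a membrane subunit related to succinate dehydrogenase, overlapped between the groups (log2 0.17, 95% interval -0.14 to 0.49). TIM54, a subunit exposed to the intermembrane space, was below both ethanol arrays on each honokiol array (log2 -0.16, adjusted p = 0.0957).

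**Figure D2:**
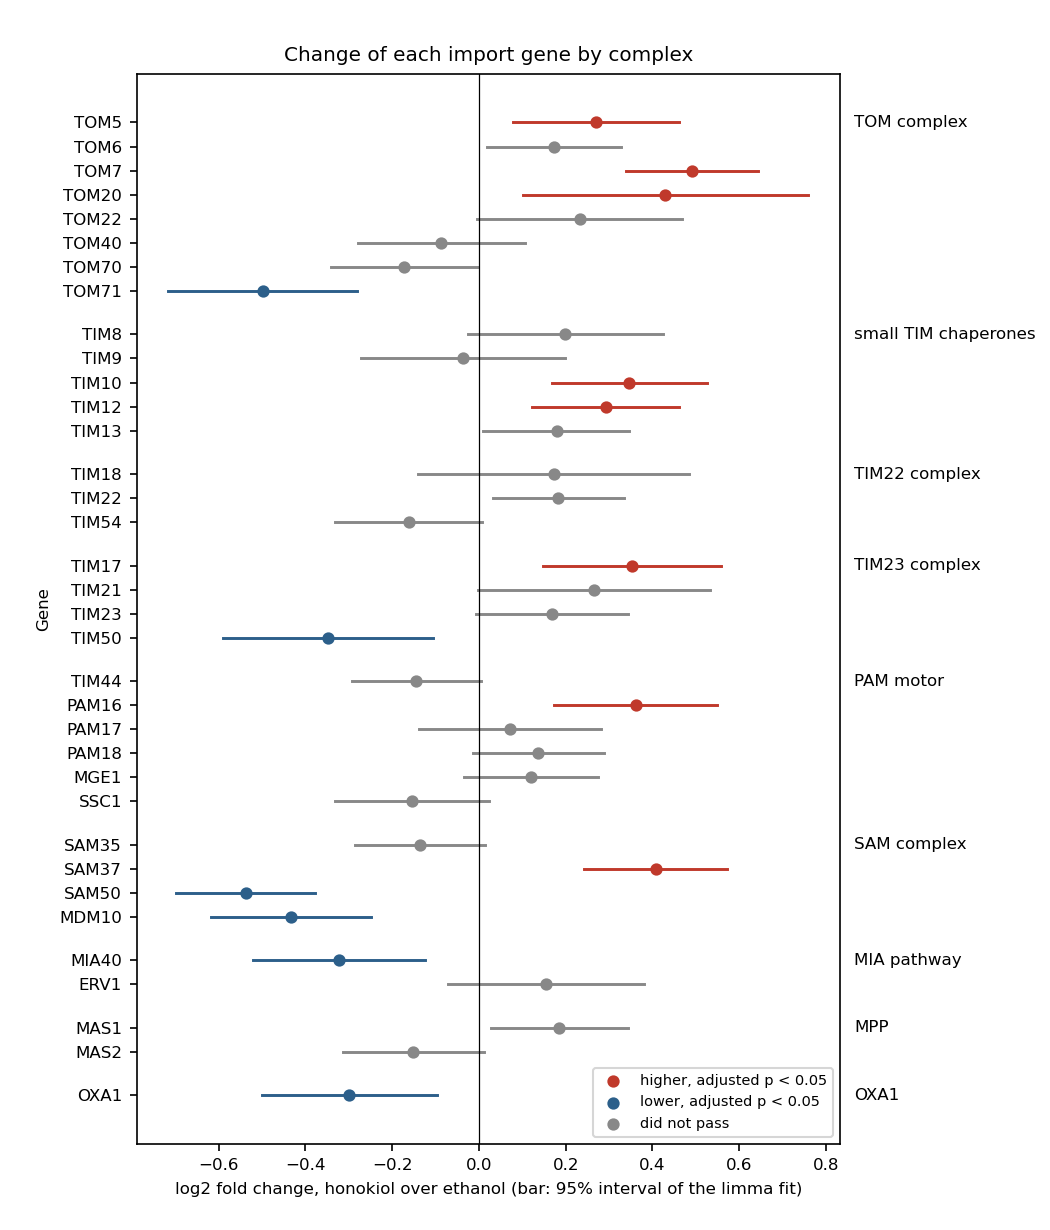
Points give the log2 fold change, honokiol over ethanol, of the 35 import genes by complex, and bars the 95% interval of the limma fit (n = 2 arrays per group). Red marks the 8 genes that rose, blue the 6 that fell and grey the 21 that did not pass; the values run from -0.54 (SAM50) to 0.49 (TOM7).

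The TIM23 complex split by subunit. TIM17, which lines the presequence translocase together with TIM23, read 12.07 and 12.04 in log2 intensity with honokiol and 11.79 and 11.62 with ethanol, and rose by log2 0.35 ± 0.08 (adjusted p = 0.021). TIM50, the receptor that takes presequences as they leave the TOM complex, moved the other way: it read 10.77 and 10.83 against 11.04 and 11.26, and fell by 0.35 ± 0.09 in log2 terms (adjusted p = 0.0338). TIM23 read 11.22 and 11.14 against 11.05 and 10.97 and did not pass (log2 0.17 ± 0.07, adjusted p = 0.0948). TIM21, which links the complex to TOM and to the respiratory chain, had a log2 fold change of 0.26 ± 0.10 (adjusted p = 0.0886). Each honokiol array lay above both ethanol arrays for TIM17, TIM23 and TIM21, and below both for TIM50. With the 5′ to 3′ ratio as a covariate neither TIM17 nor TIM50 passed, at log2 fold changes of 0.22 and -0.17 (adjusted p = 0.0836 and 0.148).

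In the PAM motor, which pulls precursors into the matrix with the Hsp70 chaperone SSC1, 1 of 6 genes passed. PAM16, the J-like protein that restrains the J-protein PAM18, read 8.93 and 8.90 in log2 intensity with honokiol and 8.49 and 8.62 with ethanol (log2 0.36 ± 0.07, adjusted p = 0.0155). It passed with the covariate too (adjusted p = 0.0175). PAM18, which stimulates SSC1, read 9.75 and 9.77 against 9.64 and 9.60, and its log2 fold change of 0.14 ± 0.06 did not pass (adjusted p = 0.11). SSC1 itself was lower on both honokiol arrays, 13.13 and 13.20 against 13.27 and 13.37 (log2 -0.15 ± 0.07, adjusted p = 0.12). TIM44, the anchor of the motor at the channel, behaved likewise in its order of arrays (log2 -0.14, adjusted p = 0.0942). The nucleotide exchange factor MGE1 had a log2 fold change of 0.12 (95% interval -0.04 to 0.27) and PAM17, which joins motor and channel, one of 0.07 (95% interval -0.14 to 0.28).

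The SAM complex held the largest fall of the set and also a rise. SAM50, the beta-barrel core that inserts other beta-barrels, read 9.80 and 9.74 in log2 intensity with honokiol and 10.29 and 10.34 with ethanol, and fell by 0.54 ± 0.06 in log2 terms (adjusted p = 0.004). MDM10, a beta-barrel shared between SAM and the tether of mitochondria to the endoplasmic reticulum, read 8.98 and 9.00 against 9.36 and 9.49 and fell by 0.43 ± 0.07 (adjusted p = 0.00943). SAM37, a peripheral subunit that helps release finished barrels, went up, from 9.02 and 8.96 with ethanol to 9.36 and 9.44 with honokiol (log2 0.41 ± 0.06, adjusted p = 0.0082). In each of these 3 genes the gap between the groups was larger than either gap between replicates. SAM35, which recognises the beta-signal of precursors, read 11.04 and 11.01 against 11.15 and 11.17 (log2 -0.14 ± 0.06, adjusted p = 0.108). With the 5′ to 3′ ratio as a covariate SAM50, MDM10 and SAM37 all passed (adjusted p = 0.0156, 0.0333 and 0.0329).

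Of the 2 genes of the disulfide relay, 1 fell and the other did not pass. MIA40, the oxidoreductase that binds incoming precursors, read 10.55 and 10.60 in log2 intensity with honokiol and 10.82 and 10.97 with ethanol, and fell by 0.32 ± 0.08 in log2 terms (adjusted p = 0.0243). With the covariate its log2 fold change was -0.20 (adjusted p = 0.106). ERV1, the sulfhydryl oxidase that reoxidises MIA40, read 9.36 on both honokiol arrays and 9.31 and 9.10 on the ethanol arrays, and did not pass (log2 0.15, 95% interval -0.07 to 0.38; adjusted p = 0.197). With the covariate ERV1 was at -0.005.

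The subunits of the matrix processing peptidase also lay on opposite sides of zero, although neither passed. MAS1, the catalytic subunit, read 10.32 and 10.38 with honokiol against 10.15 and 10.18 with ethanol (log2 0.18 ± 0.06, adjusted p = 0.0582). MAS2, the partner subunit that binds presequences, read 10.22 and 10.19 against 10.40 and 10.32 (log2 -0.15 ± 0.06, adjusted p = 0.105). MAS1 did pass after a second quantile normalization and when the prior variance followed intensity. OXA1 read 10.33 and 10.38 with honokiol and 10.73 and 10.57 with ethanol, and fell by 0.30 ± 0.08 (adjusted p = 0.0314; 0.0248 with the covariate).

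The direction of change went with gene length. The import genes are short, with a median of 669 bases against 1236 over all tested genes (S. cerevisiae assembly R64, introns included). Of the 20 import genes in the shortest quartile of tested genes (up to 756 bases), 19 had a positive log2 fold change, 7 rose and 0 fell (0 fell among them also at an unadjusted p under 0.05). Of the 15 longer ones 2 were positive, SAM37 and MAS1; 1 rose and 6 fell. The short exception was TIM9. The same tendency ran through the genome: 67.6% of all genes in that quartile and 44.9% of longer genes had a positive log2 fold change. Of all genes in that quartile 31.2% rose and 12.7% fell, against 21.5% and 29.1% of longer genes.

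Over the 35 import genes the log2 fold change and the log2 gene length had a Pearson correlation of -0.72 and a Spearman correlation of -0.75, beside -0.23 and -0.29 over the 5449 tested genes. These are descriptions across genes measured on the same 4 arrays, and genes are not replicates. Median log2 fold changes in the shortest quartile were 0.19 for import genes and 0.14 for all genes, and among longer genes -0.16 and -0.05. With the 5′ to 3′ ratio as a covariate the Pearson correlation over the import genes was -0.69 and that over all tested genes -0.11. Then 17 of the 20 short and 2 of the 15 longer import genes were positive. Over all tested genes the numbers were 776 of 1366 short and 1787 of 4083 longer genes. In that fit 3 short import genes rose and 0 fell, and of the longer ones 1 rose and 4 fell. Over all genes in that fit 19.8% of the shortest quartile rose and 11.8% fell, against 16.2% and 19.0% of longer genes. The median log2 fold change of the shortest quartile was then 0.135 for import genes and 0.056 for all genes. The covariate and the treatment cannot be told apart in full, since the ratio was lower on both ethanol arrays.

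**Figure D3:**
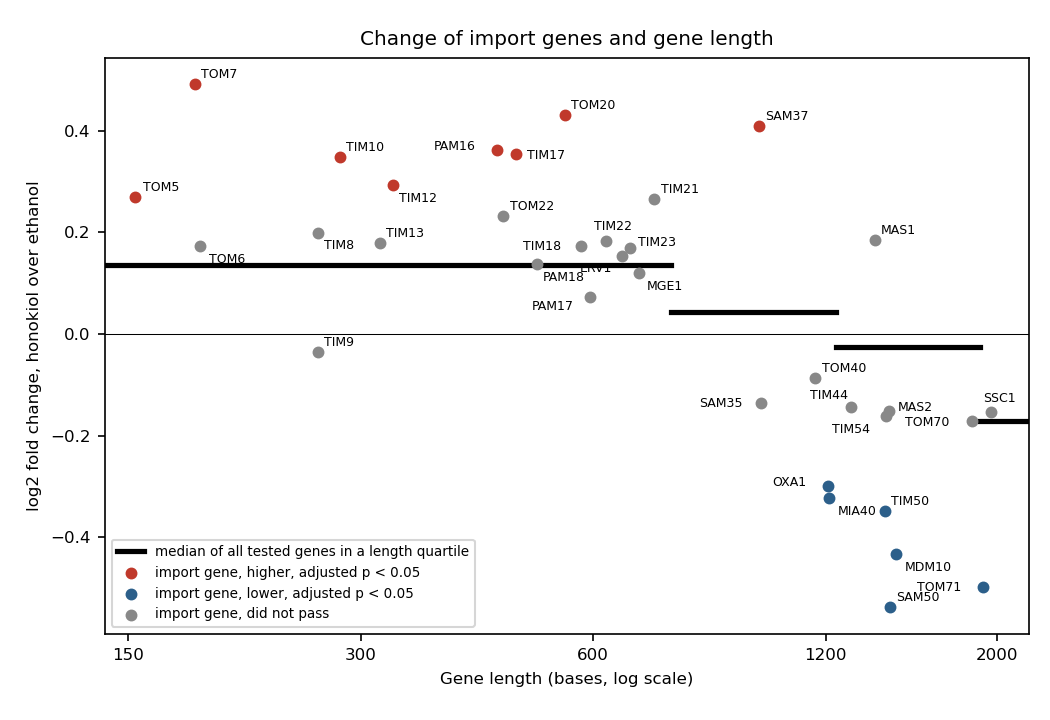
Each point is 1 of the 35 import genes, with gene length in bases on a log axis and the log2 fold change, honokiol over ethanol, on the vertical axis; black bars give the median of all tested genes in each quartile of length, the outermost ones cut off at the edges of the plot. Most points left of 756 bases lie above zero and most points to the right below it, with SAM37 and MAS1 above zero among the longer genes.

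Genes that work beside the core machinery were taken as 5 lists of known function. Among 13 other import factors 2 rose and 2 fell (median log2 fold change -0.15). At the same threshold 23.9% of all tested genes rose and 25.0% fell. HOT13, a zinc-binding protein that aids MIA40 in the intermembrane space, read 11.13 and 11.11 in log2 intensity with honokiol and 10.00 and 9.86 with ethanol, a rise of log2 1.20 ± 0.07 (adjusted p = 0.00131) that was larger than the change of any import gene. XDJ1, a J-protein, rose by log2 0.30 (adjusted p = 0.0316), PNT1, an inner membrane protein, fell by 0.32 (adjusted p = 0.0341) and MDM38, an inner membrane protein that binds mitochondrial ribosomes, fell by 0.25 (adjusted p = 0.0361). HOT13 was apart from the other 3 in size, and it alone passed with the 5′ to 3′ ratio as a covariate (adjusted p = 0.00353, against 0.152, 0.153 and 0.0674) and without honokiol 1 or honokiol 2.

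Of 7 other processing peptidases 4 fell and 0 rose, and all 7 log2 fold changes were negative, from -0.55 to -0.22 (median -0.30). Among the 5449 tested genes 25.0% fell, 23.9% rose and 2690 had a negative log2 fold change. OCT1, the octapeptidyl peptidase that trims some imported proteins further, read 7.78 and 7.95 with honokiol and 8.29 and 8.53 with ethanol (log2 -0.55 ± 0.11, adjusted p = 0.0161). IMP1, a catalytic subunit of the inner membrane peptidase, fell by 0.30 (adjusted p = 0.0128), its partner SOM1 fell by 0.22 (adjusted p = 0.0355) and the rhomboid protease PCP1 fell by 0.22 (adjusted p = 0.0338). Of 8 matrix chaperones 2 fell and 0 rose: the disaggregase HSP78 fell by 0.45 (adjusted p = 0.0123) and the J-protein MDJ1 fell by 0.21 (adjusted p = 0.0475). HSP60 and its cofactor HSP10, which fold imported proteins, had log2 fold changes of -0.09 and 0.13 and did not pass (adjusted p = 0.24 and 0.139). With the covariate IMP1 passed (adjusted p = 0.0349), and OCT1, SOM1, PCP1, HSP78 and MDJ1 did not (adjusted p between 0.0506 and 0.179). Without honokiol 1 or honokiol 2 no gene of these lists passed.

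All 7 genes listed for the response to blocked import passed, 5 higher and 2 lower (median log2 fold change 0.89). Over all tested genes 48.9% passed, 23.9% higher and 25.0% lower. CIS1, whose protein recruits the extractase MSP1 to the TOM complex when import stalls, read 11.02 and 11.07 with honokiol and 8.05 and 8.15 with ethanol (log2 2.94 ± 0.07, adjusted p = 0.000248). Its regulator PDR3 rose by log2 0.89 and RPN4, which controls proteasome genes, by log2 1.10 (adjusted p = 0.00156 and 0.00131); the drug pump gene PDR15 rose by log2 1.19 (adjusted p = 0.00142). PDR3, PDR5 and PDR15 also belong to general drug resistance, so the list is not particular to import. MSP1 itself fell by 0.29 and UBX2, which clears stalled precursors from the TOM complex, fell by 0.59 (adjusted p = 0.0273 and 0.00316). MSP1 read 9.54 and 9.41 with honokiol against 9.74 and 9.79 with ethanol. The 5 rises also passed without each array in turn and with the covariate, as did the fall of UBX2. MSP1 did not pass with the covariate (adjusted p = 0.106), without ethanol 2 (adjusted p = 0.0505), without honokiol 1 (adjusted p = 0.093) or without honokiol 2 (adjusted p = 0.179).

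The proteins that the machinery carries were grouped by route. For the TIM23 route, 28 subunits of the cytochrome bc1 complex, cytochrome c oxidase and the ATP synthase were listed. They were taken by complex, and whether each has a cleavable presequence was not checked. Of the 28 subunits 27 fell and 0 rose, beside 25.0% and 23.9% of all tested genes. None of the 28 rose at an unadjusted p under 0.05 either (median log2 fold change -0.45, range -0.88 to -0.11). Their median length was 430 bases, shorter than the median of the import genes. The largest falls were those of COR1, COX4, QCR2 and QCR10, which fell by 0.88, 0.86, 0.86 and 0.75 in log2 terms (adjusted p between 0.00175 and 0.00308). None of the import genes fell as far as these 4. With the covariate 26 of the 28 fell; without honokiol 1 the number was 9 and without honokiol 2 it was 7.

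For the TIM22 route, 17 of 27 metabolite carriers rose and 4 fell (median log2 fold change 0.33), beside 23.9% and 25.0% of all tested genes. YMC2, a carrier of the inner membrane, read 9.12 and 9.19 with honokiol and 7.62 and 7.51 with ethanol (log2 1.59 ± 0.07, adjusted p = 0.000889). The dicarboxylate carrier DIC1 rose by log2 1.37, the carnitine carrier CRC1 by log2 0.96 and the oxodicarboxylate carrier ODC2 by log2 0.77 (adjusted p = 0.0012, 0.00763 and 0.00181). The number of carriers called was 10 higher and 5 lower with the 5′ to 3′ ratio as a covariate, 3 and 1 without honokiol 1, and 5 and 1 without honokiol 2.

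For the MIA route, 5 of 11 twin-cysteine proteins rose and 3 fell (median log2 fold change 0.16), beside 23.9% and 25.0% of all tested genes. MIX17 and MIX23 rose by log2 0.63 and 0.38 (adjusted p = 0.0203 and 0.0279). COX12 and QCR6, subunits of respiratory complexes, fell by 0.52 and 0.45 (adjusted p = 0.00647 and 0.00792). For the SAM route, the outer membrane porin POR1 fell by 0.33 (adjusted p = 0.0106), and its paralog POR2 had a log2 fold change of 0.16 that did not pass (adjusted p = 0.189). With the covariate MIX17 was at log2 0.32 (adjusted p = 0.0369), and MIX23, at log2 0.33, did not pass (adjusted p = 0.124); MIX23 did not pass without ethanol 2 either (adjusted p = 0.0533). With the covariate the MIA list had 2 genes higher and 3 lower, without honokiol 1 it had 0 and 1, and without honokiol 2 it had 0 and 0; POR1 did not pass without either honokiol array. No gene was on more than 1 list, but all values come from the same 4 arrays, and differences between a route's machinery and its cargo were not tested.

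**Figure D4:**
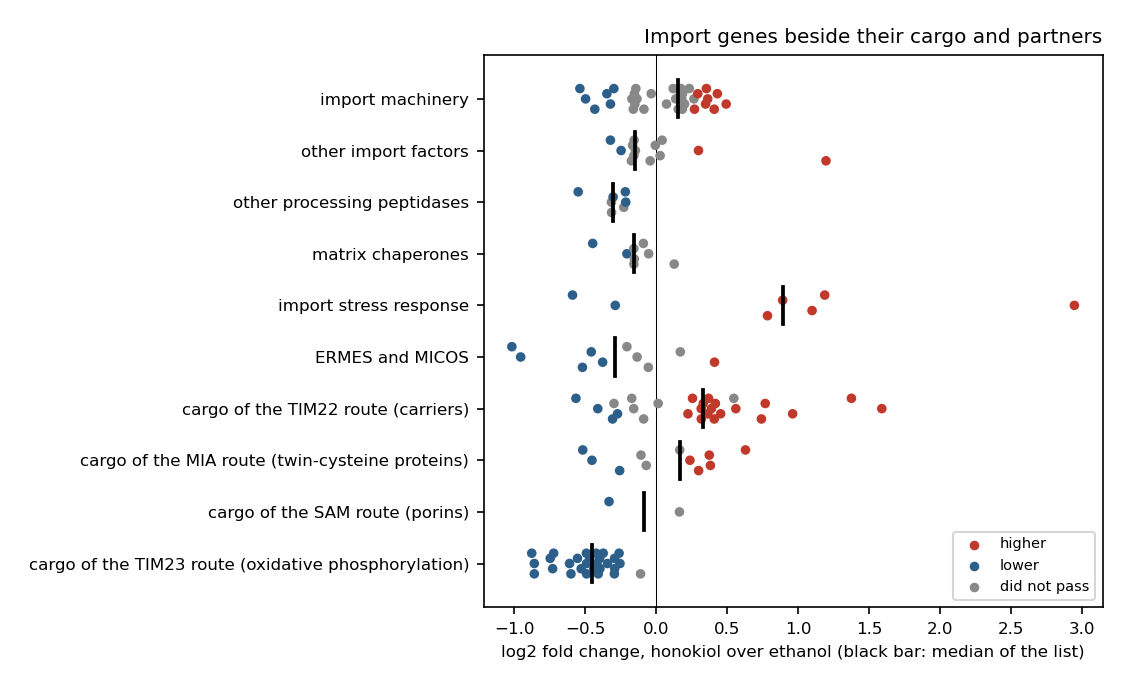
Points are genes, placed by log2 fold change, honokiol over ethanol, with the 35 import genes in the top row and the related and cargo lists below; the black bar is each list's median, red marks genes that rose, blue those that fell and grey those that did not pass. The import genes stay between -0.54 and 0.49, while the 28 oxidative phosphorylation subunits lie between -0.88 and -0.11 and the listed import stress genes reach 2.94.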

How the data were processed

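The authors deposited linear intensities, summarised by probe set with RMA per the submitters' processing notes (version not given in the sources used here). RNA was extracted with phenol and 100 ng of total RNA was amplified and labelled, per the labels' protocols. Here log2 was taken with no pseudocount. Names came from GEO's platform annotation, updated by Entrez ID with RefSeq's R64 gene table, in which 5498 of 10928 probe sets had a gene, giving 5449 genes, each by its brightest probe set. The background level is the 95th percentile of means over the 1747 probe sets naming genes absent from that table. Honokiol and ethanol were compared with limma 3.58.1 (lmFit and eBayes; R 4.3.3) in a two-sided test; p-values were adjusted by Benjamini-Hochberg across all 5449; errors are standard errors, with 2 residual and 2.76 prior degrees of freedom. The fit was tested on simulated data with few changed genes and independent noise. That setting is simpler than these arrays, so it does not vouch for the calls made here. The number of arrays limits the precision.

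Members, lists, the split by length and the tests were chosen with earlier results of these data known. All 35 members are named, and up to 4 genes of each other list, those with the largest absolute change among genes that passed, besides some named for their known partners (PDR5, MSP1, UBX2, HSP60, HSP10 and POR2), chosen after their values were seen. Alternatives covered the variance prior, normalization, probe set choice, RNA quality, a replicate block and leaving out each array. No sequences are shown.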

Additional observations from a re-analysis of the deposited data

How the results depend on the processing

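Under 13 alternative settings all 14 called import genes kept their direction, and 11 of the other 21 passed in at least 1. For most settings the kept direction was fixed in advance. Changing the variance prior, the genes or probe sets fitted, or adding the replicate block left the fold changes of these 14 as they were. Leaving out single arrays could not reverse groups that did not overlap. Only the normalization and covariate fits could have changed a direction. Against 8 import genes higher and 6 lower, the numbers were 13 higher with an intensity trend and robust prior, 14 higher with quantile normalization again, 2 higher and 3 lower when all probe sets other than AFFX controls entered the fit, and 4 higher with the 5′ to 3′ ratio as a covariate. With single arrays left out, the import genes higher ranged from 0 to 13 and those lower from 0 to 6. Over the genome the calls (2663, of them 1302 higher and 1361 lower) became 1611 (832 higher, 779 lower) when all probe sets entered; without single arrays they ranged from 705 to 3190 (439 to 1634 higher, 264 to 1556 lower). The calls among related and cargo genes (80) became 48 with all probe sets and ranged from 23 to 78 without single arrays. TIM9, TIM18, PAM17 and ERV1 changed sign with the covariate (log2 fold changes 0.113, -0.063, -0.067 and -0.005), as did the porin gene POR2 (-0.003). Without single arrays TIM9 ranged from -0.137 to 0.065 (0.005 without honokiol 2, 0.065 without ethanol 2) and PAM17 from -0.017 (without ethanol 2) to 0.161, and neither passed. The cause was not tested. The fit without a honokiol array assumes that the lone array varies like the ethanol pair. With the replicate number as a block, 9 import genes were higher and 6 lower; deviations of same-numbered arrays correlated at 0.33 over genes, but 2 pairs do not show that numbers pair the cultures.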

Other observations

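The fifth related list covers genes that hold mitochondrial membranes in contact. Of 10 genes of ERMES, the tether between mitochondria and the endoplasmic reticulum, and MICOS, which shapes cristae junctions, 5 fell and 1 rose (median log2 fold change -0.29); without honokiol 1 the numbers were 2 and 0, and without honokiol 2 they were 3 and 0. MMM1, the ERMES subunit anchored in the endoplasmic reticulum, read 9.79 and 9.91 in log2 intensity with honokiol and 10.85 and 10.88 with ethanol (log2 -1.02 ± 0.07, adjusted p = 0.00147), a larger fall than that of the ERMES beta-barrel MDM10. MIC60, the MICOS core subunit known to contact the TOM and SAM complexes, read 9.52 and 9.61 against 10.46 and 10.57 (log2 -0.96 ± 0.07, adjusted p = 0.00183). GEM1, a regulatory GTPase at ERMES, fell by 0.52 and MIC10, the other MICOS core subunit, fell by 0.46 (adjusted p = 0.00642 and 0.00481). For these 4 genes the honokiol arrays lay below both ethanol arrays, as they did for 40.2% of all tested genes. At the threshold used for the lists 25.0% of all tested genes fell and 23.9% rose.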
